A study of Mus musculus with 6 samples.

Results

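miR-210 is the microRNA (miRNA) most widely used as a mark of the cellular response to low oxygen. It was 1 of 690 mouse miRNAs on the array and was taken by its name in the scanner files, mmu-miR-210, which 2 of the 1928 probes carried. The hypoxia-inducible factors HIF-1 and HIF-2 switch on its gene when oxygen falls, and the mature strand then represses messenger RNAs for mitochondrial iron-sulphur cluster assembly and respiration, among them that of Iscu. Growth plate cartilage has no vessels of its own and its chondrocytes depend on HIF-1, while the hypertrophic zone lies next to the vessels that invade from the bone. The array therefore gives the level of a hypoxia miRNA along the path from the proliferative through the prehypertrophic to the hypertrophic zone.

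C57BL/6 mice aged 12 days gave the tissue, the growth plate of the femur, which was dissected into these 3 zones. The labels name no mutant allele and no treatment in any group. Each zone had 2 one-colour arrays, each hybridised with 100 ng of total RNA from a pool of 5 growth plates. The labels do not say which animals entered which pool, so p-values measure the spread between these 6 pooled samples. The number in an array's name below (first, second) is a name only.

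The mature sequence, as RefSeq lists it on build GRCm38.p6, is shown because no other mature mouse strand listed there carries its seed, the part that pairs with target messages. Of the 690 array names, 195 stood in RefSeq as written and 243 more once an arm was added. In the mature strand the capitals mark the seed (bases 2 to 8), and in the hairpin they mark the whole mature strand.
miR-210-3p: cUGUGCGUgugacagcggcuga
miR-210-5p: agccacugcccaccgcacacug
Mir210 hairpin: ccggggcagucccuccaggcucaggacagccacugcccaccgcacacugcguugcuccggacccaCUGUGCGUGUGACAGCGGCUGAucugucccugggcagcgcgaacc
The 110-base hairpin lies at chr7:141221384-141221493 on the minus strand and is annotated as the miRNA gene Mir210. No other gene of the RefSeq table overlapped it, and the nearest genes there were Rassf7 on one side and Gm51460, followed by Phrf1, on the other. The 3p strand covers bases 66 to 87 of the hairpin and the 5p strand bases 28 to 49. The array name miR-210 carries no arm. At the time of that array design it stood for the 3p strand, and the scanner files hold no probe sequence. Of 1679 mature mouse names in RefSeq, 0 others had the seed UGUGCGU, and the longest run of bases that miR-210-3p shared with any of them was 9.

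The arrays were alike in quality. Between 24.2% and 27.9% of miRNA spots were well above background, 384 to 515 of 13800 spots per array were set aside as outliers, and 0 were saturated. All 6 arrays lay on 1 slide and had 1 scan date. Slide row 1 held the hypertrophic pair and the first proliferative array, and row 2 the prehypertrophic pair and the second proliferative array.

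miR-210 was bright in every zone. All 10 spots of both probes were well above background on all 6 arrays. By its brighter probe it gave a background-subtracted signal of 489 ± 33.7 and 381 ± 17.9 intensity units (SD of the spots of 1 array) on the first and second proliferative arrays. The prehypertrophic arrays gave 452 ± 17.6 and 434 ± 13.3, and the hypertrophic arrays 238 ± 15.9 and 416 ± 9.86. Before any scaling between arrays, therefore, the first hypertrophic array lay below the other 5, while the second lay between the proliferative pair.

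The arrays themselves differed in brightness, the proliferative pair being the dimmest. The 75th percentile over the 342 probes well above background on all arrays was 131 and 108 on the proliferative, 146 and 155 on the prehypertrophic and 146 and 190 on the hypertrophic arrays. After each array was scaled to this percentile, the proliferative arrays gave 538 and 505 units of miR-210, the prehypertrophic arrays 444 and 403 and the hypertrophic arrays 235 and 315. On this scale the zones did not overlap and fell in the order proliferative, prehypertrophic, hypertrophic. As log2 values these are 9.03 ± 0.065, 8.73 ± 0.099 and 8.09 ± 0.30 (SD, n = 2 each).

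**Figure D1:**
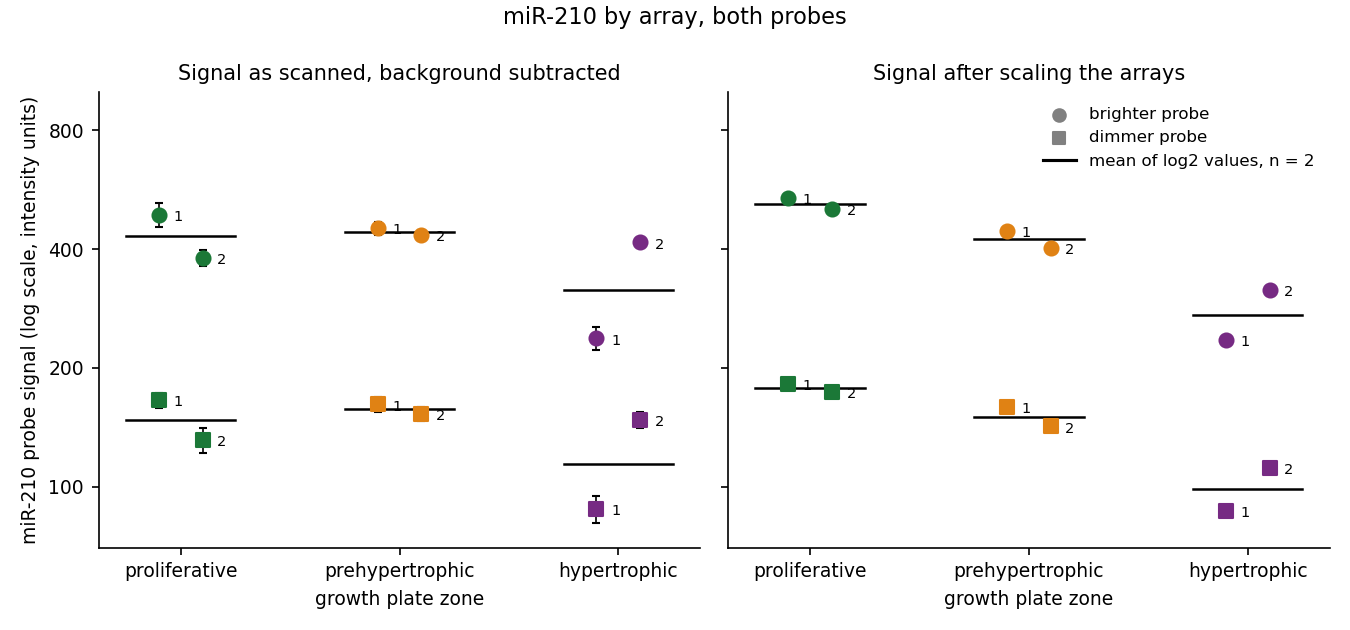
Signal of miR-210 on each array (vertical axis, intensity units on a log scale) by zone, for the brighter probe (circles) and the dimmer probe (squares), before scaling between arrays on the left with the SD over spots as bars, and after it on the right; black lines are means of the log2 values of 2 arrays, and small numbers name the array. On the left the second hypertrophic array (416) lies between the proliferative arrays (489 and 381), and on the right both hypertrophic arrays (235 and 315) lie below all others.

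The place of miR-210 in the brightness order of an array does not depend on how arrays are scaled. Ordered by their brightest probe from bright to dim, miR-210 stood at place 24 and 26 of 690 on the proliferative arrays, 28 and 29 on the prehypertrophic arrays and 42 and 34 on the hypertrophic arrays. By the scanner software's total signal per miRNA the places were 23 and 25, 26 and 30, and 42 and 32. The zones did not overlap by either measure, but how often this holds for other miRNAs by place was not counted. By scaled level the arrays of the outer zones did not overlap for 46.9% of tested miRNAs. Brightness also depends on how well each probe binds, so a place is not an order of abundance, and a place also moves when other miRNAs change. The places take in all 690 array names, also those not found in RefSeq. In all, 9 of these names were dimmer than miR-210 on both proliferative arrays and brighter on both hypertrophic arrays, and 0 moved the other way. Of these 9, 4 were higher in the hypertrophic zone by limma, adjusted over all 226 tested miRNAs: miR-22, miR-322, miR-503 and miR-2132, named here after their values were seen. Among all 226, 5.75% were called higher. The 9 were picked on these same arrays for passing miR-210, whose own level was lower there, so their direction is no separate result. Before scaling, miR-322 gave 130 and 71.7 units on the proliferative arrays and 526 and 842 on the hypertrophic arrays. The calls of these 4 were lost when either hypertrophic array was left out, with the fold changes still above 0.

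Both probes of miR-210 gave the same order of zones. The ratio of the brighter to the dimmer probe lay between 2.71 and 2.95 on the 6 arrays, and its log2 value was 1.50 ± 0.044 (SD, n = 6). By the dimmer probe the scaled log2 level was 7.48 ± 0.046 in proliferative, 7.23 ± 0.11 in prehypertrophic and 6.62 ± 0.26 in hypertrophic cartilage (SD, n = 2 each). In their differences between the outer zones the 2 probes lay 0.0836 log2 units apart. For the 123 miRNAs with at least 2 probes well above background on all arrays, the median range over these probes was 0.110. Such a range can take in more than 2 probes, and 39.0% of the 123 had a smaller one than miR-210. The probes read the same labelled RNA, so their accord speaks of the measurement on an array and not of the spread between pools.

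Between the outer zones miR-210 fell by 0.94 on the log2 scale (SE 0.26, 95% interval -1.52 to -0.36), to 52.2% of its proliferative level (limma, adjusted p = 0.0393 over 226 miRNAs). Both hypertrophic arrays lay below both proliferative arrays by at least 0.68 log2 units. Among all tested miRNAs 14.6% passed this threshold, 8.85% as lower and 5.75% as higher, and for 46.9% the arrays of these zones did not overlap, so a gap between the zones is common on these arrays. Ordered from the lowest fold change, miR-210 was at place 19 of 226, where the median of all was -0.0017. An exact permutation test of the 4 arrays, two-sided, gave p = 0.333, which is the smallest that 2 against 2 arrays can give. The F test over all 3 zones did not pass for miR-210 (limma, adjusted p = 0.102), while 7.96% of miRNAs passed it.

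In miR-210 the hypertrophic arrays differed from each other more than those of the other zones did. Their scaled levels of miR-210 were 0.42 log2 units apart, against 0.092 for the proliferative and 0.14 for the prehypertrophic pair. Before scaling the gaps were 0.81, 0.36 and 0.059. The 4 possible pairs of a hypertrophic and a proliferative array gave log2 differences of -1.20, -1.10, -0.77 and -0.68 after scaling. Without scaling they were -1.04, -0.68, -0.23 and 0.13, so 1 of the 4 pairs then ran the other way. The title numbers form 2 runs of 3 arrays, 13 to 15 and 16 to 18, each with 1 array per zone, although no label calls a run a batch. Within these runs the scaled difference was -0.77 and -1.10. Within row 1 of the slide it was -1.20 and -0.77, both against the first proliferative array.

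The call between the outer zones did not hold widely. It was kept in 9 of 25 other settings, with a log2 fold change below 0 in each of the 25. It was lost with each of 4 other scalings, among them no scaling at all (-0.46, adjusted p = 0.322), where the median of all tested miRNAs moved to 0.45. Relative to the median of all, miR-210 stood at -0.91 without scaling and at -0.94 with it. Quantile normalization gave -0.84 on this measure, and normexp background correction, which kept the call, gave -0.53. The authors' deposited log2 table gave a log2 fold change of -0.94 by limma (adjusted p = 0.096). Leaving out any 1 of the 6 arrays also ended the call, with adjusted p from 0.0579 to 0.267. With only the second hypertrophic array kept the log2 fold change was -0.73, and with only the first it was -1.15. The calls over all miRNAs went from 33 to 2 and to 1 in these same fits.

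**Figure D2:**
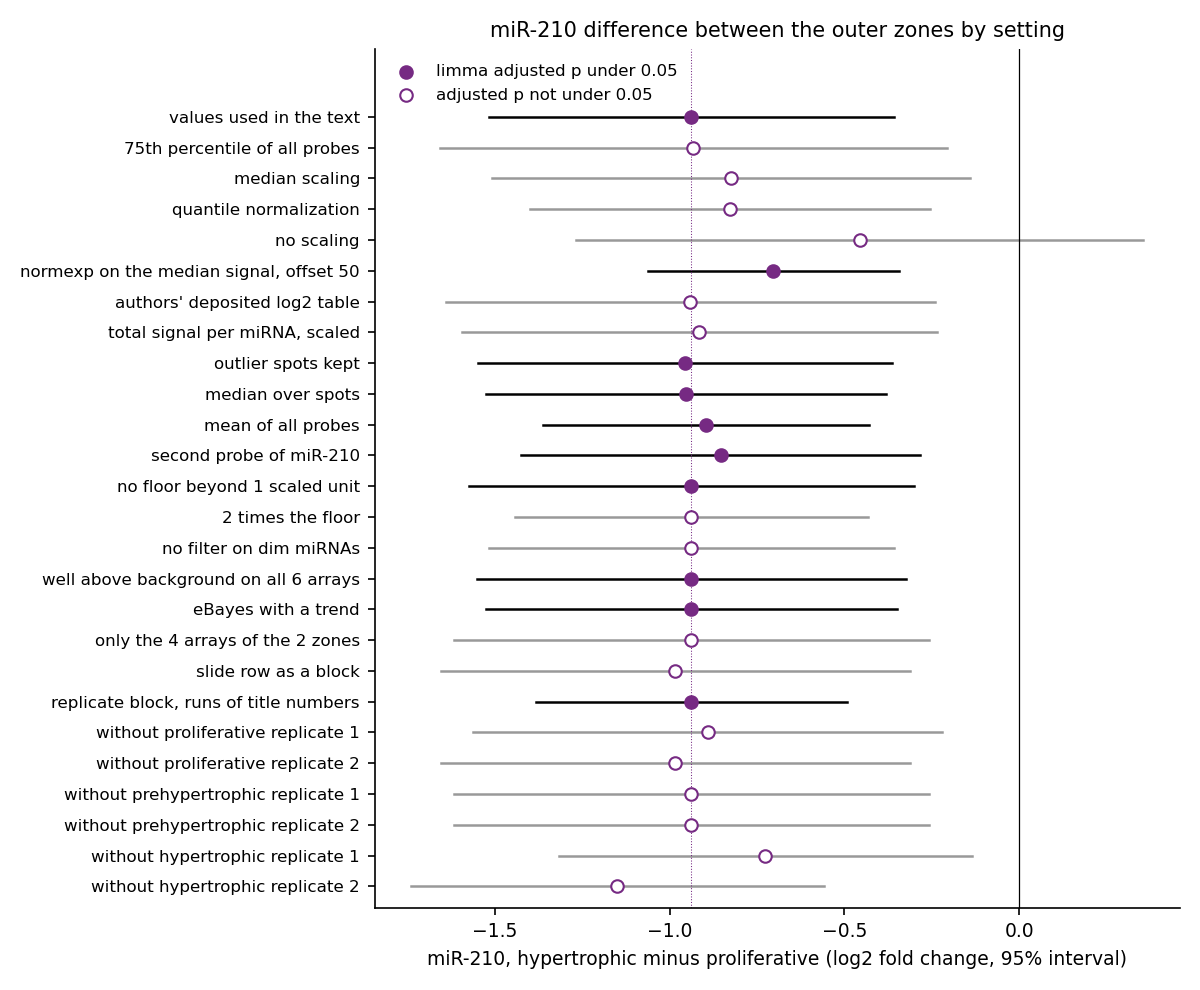
Log2 fold change of miR-210 between the hypertrophic and proliferative zones (horizontal axis, points) with its 95% interval (lines) under the values used in the text and 25 other settings (vertical axis); filled points had a limma adjusted p under 0.05. Every point lies left of 0, between -1.15 and -0.46, 10 of 26 points are filled, and the interval without scaling spans 0.

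Neither step alone passed the threshold. From the proliferative to the prehypertrophic zone the log2 fold change was -0.30 (SE 0.26, 95% interval -0.88 to 0.28, limma adjusted p = 0.684), where 2.21% of miRNAs passed, all higher, and 36.3% had zones that did not overlap. Without scaling its sign turned, to 0.038, beside a median of 0.16 for all tested miRNAs. From the prehypertrophic to the hypertrophic zone it was -0.64 (SE 0.26, 95% interval -1.22 to -0.06, limma adjusted p = 0.255), where 1.33% passed, all higher, and 66.8% had zones that did not overlap. In none of the 25 other settings did either step pass. The size of the second step was at least 0.43 in each setting, and its sign was always negative. Both hypertrophic arrays lay in slide row 1 and both prehypertrophic arrays in row 2, however. Between these arrays zone and slide row cannot be told apart. Neighbouring zones in the order of levels are thus not shown to differ, and whether one step is larger than the other was not tested.

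The labelled tissue was checked with chondrocyte miRNAs. Of 6 such miRNAs, miR-140, miR-140* of the same hairpin, miR-455 and miR-455* were well above background on all 6 arrays. miR-675-3p passed this mark on the 4 arrays of the other zones but not on the hypertrophic pair, and miR-675-5p on none. The summed scaled signal of the 6 was 10392 and 6482 units on the proliferative, 6841 and 6939 on the prehypertrophic and 3917 and 4924 on the hypertrophic arrays. This sum was thus lowest in the zone where miR-210 was lowest. Most of it came from miR-140* on each array. The scaled log2 levels of miR-140* were 12.78 and 12.01 (proliferative), 12.07 and 12.06 (prehypertrophic) and 11.22 and 11.60 (hypertrophic). By limma between the outer zones 1 of 5 tested members fell, miR-675-3p (at least 1.82-fold lower, adjusted p = 0.0393), and 4 did not pass. Among all tested miRNAs 8.85% were called lower. The call of miR-675-3p was lost without the first proliferative array and without either array of the other zones, and miR-140 (-1.12) and miR-140* (-1.37) passed without the second proliferative array. With all arrays the values were -0.76 for miR-140, -0.98 for miR-140*, -0.78 for miR-455 and 0.37 for miR-455*. The list median was -0.78, and -0.30 without scaling. The 1 fall became 0 with no scaling, median scaling and the all-probe percentile, and 2 with quantile normalization, miR-140* and miR-455 in place of miR-675-3p.

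The summed signal of blood and of vessel miRNAs was highest on the hypertrophic arrays. The 7 blood miRNAs summed to 26.8 and 41.1 scaled units on the proliferative, 45.2 and 47.3 on the prehypertrophic and 262 and 290 on the hypertrophic arrays, with 1 to 3 members well above background per array. Most of the hypertrophic sums came from the erythroid miR-451, whose scaled log2 levels there were 7.82 and 7.99. It rose in the outer comparison (log2 fold change 4.18, limma adjusted p = 9.57e-07). That size rests on a dim group, since 1 of 2 proliferative arrays had it well above background and the other was at the floor, and it ranged from 1.90 to 6.09 over 23 other settings, passing in each. The other tested member, the myeloid miR-223, stood at 0.88 and did not pass (adjusted p = 0.0591). The erythroid miR-486 was not tested, since 1 array of each outer zone had it well above background, at mean log2 levels of 3.92 and 3.84 in these zones. The remaining 4 members, the leukocyte miRNAs miR-150 and both strands of miR-142 and the erythroid miR-144, were never well above background. Of the 2 endothelial miRNAs, miR-126-3p rose above background on the hypertrophic pair alone and was at least 2.75-fold higher than in the proliferative zone (limma adjusted p = 0.00169, but 0.056 and 0.113 without the first and the second hypertrophic array). miR-126-5p stayed below it throughout. Both together summed to 0 on each proliferative and prehypertrophic array and to 34.7 and 47.2 on the hypertrophic arrays. None of the 4 skeletal muscle miRNAs (miR-1, miR-133a, miR-133b, miR-206) was well above background on any array, with sums of 8.69 to 16.6. The part of these other cells in the lower miR-210 was not tested. In such bulk tissue, fewer cells with miR-210 and less miR-210 per cell cannot be told apart.

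Of 16 other miRNAs described elsewhere as raised by hypoxia, 14 were tested and 2, miR-155 and miR-181c, were never well above background. Between the outer zones 4 rose, 1 fell and 9 did not pass by limma, where 5.75% of all tested miRNAs were called higher and 8.85% lower, and the 1 fall was lost under each of 4 other scalings. Here the list median was 0.076 beside -0.0017 for all tested miRNAs. miR-322 (miR-424 in humans), which stabilises HIF-1 alpha in endothelial cells, had scaled log2 levels of 7.16 and 6.57 on the proliferative arrays, 8.94 and 8.98 on the prehypertrophic and 9.02 and 9.32 on the hypertrophic arrays. Its arrays in the prehypertrophic and hypertrophic zones all lay above the proliferative pair. Among all tested miRNAs, 36.3% had no overlap between the prehypertrophic and proliferative arrays, and 46.9% none between the outer zones. miR-322 rose by 2.30 between the outer zones (adjusted p = 4.40e-04). miR-181b rose by 1.82 (adjusted p = 0.00204), and miR-21, a widely expressed stress-linked miRNA, by 1.75 (adjusted p = 0.00628). For miR-21 only 1 of 2 proliferative arrays was well above background and the other was at the floor. Its value ranged from 0.42 to 2.16 over 23 other settings and passed in 11. miR-181a was at least 3.89-fold higher (adjusted p = 4.40e-04), since neither proliferative array had it well above background. Leaving out the second hypertrophic array ended all 4 of these calls (limma adjusted p from 0.11 to 0.212), and leaving out the first ended all but that of miR-181a. The calls of miR-181b and miR-21 were also lost without the first and the second proliferative array, respectively.

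Of the 14 tested members of this list 7 had a log2 fold change below 0 between the outer zones, among them miR-107 (-0.85, limma adjusted p = 0.0755). The one member called lower, as miR-210 was, was miR-103, which lies within genes of pantothenate kinases and affects insulin sensitivity. Its scaled log2 levels were 7.23 and 6.51 (proliferative), 6.47 and 6.49 (prehypertrophic) and 5.80 and 5.90 (hypertrophic), a fall of 1.02 (SE 0.29, limma adjusted p = 0.0393). The first proliferative array stood well above the second, and without it the fall was 0.66 and did not pass. Neither did it pass without either hypertrophic array. Under each of the other 4 scalings 3 members rose and 0 fell, the calls of miR-21 and miR-103 being lost, and the list median ranged from 0.017 to 0.56. In the first step 1 of 14 rose, miR-322 (2.10, limma adjusted p = 0.00108), where 2.21% of all tested miRNAs passed, all higher. This call was kept in 18 of 24 other settings. The settings that lost it included no scaling and leaving out either hypertrophic array. In the second step 0 passed by limma, with 3 at an unadjusted p under 0.05, all higher, against 34 of the 226 miRNAs, 15 of them lower.

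A second list held 6 miRNAs that are lowered by hypoxia or act on HIF messages, of which 5 were tested and miR-17 was never well above background. Between the outer zones 5.75% of all tested miRNAs were called higher. Of the 5 members 1 rose, miR-22, which represses HIF-1 alpha (log2 fold change 1.44, SE 0.26, limma adjusted p = 0.00381), and 4 did not pass. The others stood at -0.72 for miR-199a-5p, which also represses HIF-1 alpha, 0.43 for miR-20b, 0.26 for miR-20a and 0.042 for miR-18a. The list median was 0.26, with a range of 0.24 to 0.74 over the other 4 scalings. miR-22 also rose in the first step (1.31, limma adjusted p = 0.0162), where 2.21% of all tested miRNAs passed, all higher. This call was lost unscaled, under the all-probe percentile and without any 1 array. The rise of miR-22 between the outer zones was lost without either hypertrophic array.

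**Figure D3:**
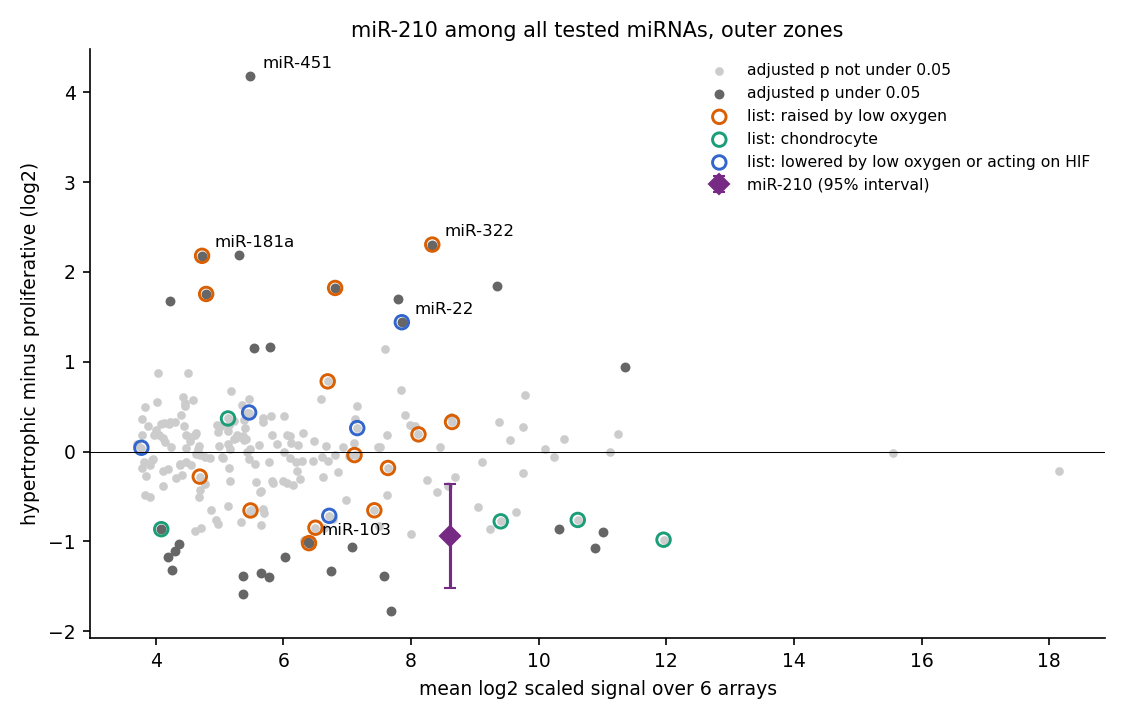
Log2 fold change between the hypertrophic and proliferative zones (vertical axis) against the mean log2 scaled signal over 6 arrays (horizontal axis) for the 226 tested miRNAs; dark points had a limma adjusted p under 0.05, rings mark 3 lists of miRNAs, and the diamond is miR-210 with its 95% interval. miR-210, at -0.94, lies far from miR-322 (2.30) and miR-22 (1.44) and on the same side of 0 as miR-103 (-1.02) and 4 of the 5 ringed chondrocyte miRNAs.

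Over the 6 arrays miR-210 varied more than most miRNAs that were well above background throughout. Its scaled log2 level had an SD of 0.45, larger than that of 72.6% of the 186 miRNAs well above background on all arrays, whose median SD was 0.35. The 5 miRNAs whose profile over the 6 arrays, each set to its own mean, lay nearest to that of miR-210 were let-7c, let-7a, let-7d, miR-199b* and let-7b. Their distances were 0.31, 0.32, 0.34, 0.34 and 0.36 log2 units, where the median of the 185 compared was 1.23. Pearson's r with miR-210 was 0.95, 0.95, 0.94, 0.95 and 0.94 over these 6 arrays, which share slide and scaling, and the median r was -0.10. The let-7 strands are shown because their likeness bears on how many separate profiles these are, with the seed in capitals.
let-7a-5p: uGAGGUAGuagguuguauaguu
let-7b-5p: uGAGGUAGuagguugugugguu
let-7c-5p: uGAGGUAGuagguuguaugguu
let-7d-5p: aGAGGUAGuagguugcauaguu
Of their 22 bases let-7a and let-7c differed in 1, let-7a and let-7b in 2, and let-7b and let-7d in 4, and how far RNA of one reaches the probes of another was not tested. miR-210 shares no run of more than 9 bases with any of them.

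**Figure D4:**
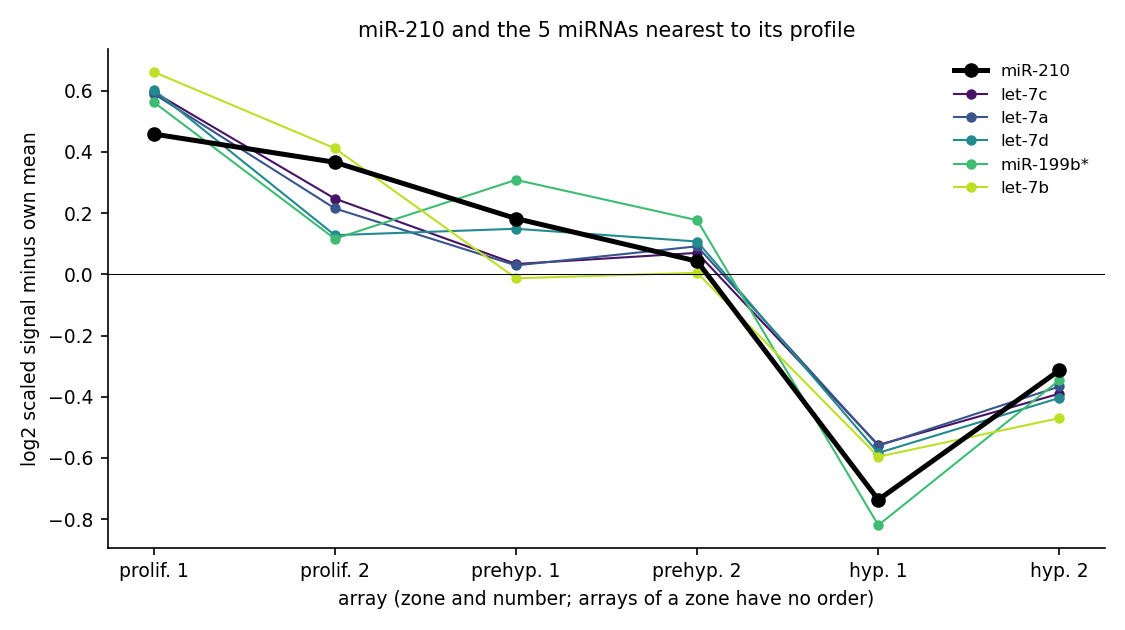
Scaled log2 signal minus each miRNA's own mean over the arrays (vertical axis) on the 6 arrays (horizontal axis) for miR-210 (thick line) and the 5 miRNAs with the nearest profile (thin lines). All 6 lines are lowest on the first hypertrophic array, and only miR-199b* is higher on both prehypertrophic arrays than on the second proliferative array.

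In all 5 the first proliferative array stood further above the second than it did for miR-210. miR-210 had 9.07 and 8.98 on the first and second proliferative arrays, whereas let-7c had 11.60 and 11.26 and let-7d 9.84 and 9.36. Between the outer zones let-7b fell by 1.07 (limma adjusted p = 0.0177), let-7c by 0.90 (adjusted p = 0.0393) and let-7a by 0.87 (adjusted p = 0.0474). let-7d (-0.86, adjusted p = 0.0534) and miR-199b* (-0.92, adjusted p = 0.0513) did not pass with all arrays, and both did so without the second proliferative array. The calls of let-7a, let-7b and let-7c were lost without the first proliferative or either hypertrophic array, and those of let-7a and let-7c also without either prehypertrophic array. Over 24 other settings, these among them, let-7a passed in 7 (-1.05 to -0.38), let-7c in 10 (-1.07 to -0.41) and let-7b in 16 (-1.19 to -0.59). These profiles were chosen for being like that of miR-210, so that these values describe them and are no separate evidence for its fall.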

How the data were processed

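The values used were spot intensities on a linear scale, as deposited. Feature Extraction 10.7.3.1 had read the authors' one-colour scans, per the file headers, with a background taken off each spot and flags for outliers and for signals well above background. A table of log2 values deposited by the authors was analysed by them in GeneSpring, per the labels. Set against the scanner files, each column was the log2 total signal of a miRNA, with signals under 1 raised to 1, less 1 constant per array (departures up to 1.3e-06), which settles scale, direction and centring. The medians of its columns were -4.40, -4.25, -4.46, -4.45, -4.69 and -4.94 for the proliferative, prehypertrophic and hypertrophic pairs. It served as an alternative.

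Unflagged spots of a probe were averaged. Arrays were brought to a common 75th percentile of the probes detected well above background on all 6, a floor of 12.66 units was set, and log2 was taken. A miRNA was represented by its brightest probe. "At least" folds compare the brighter zone with, on each array of the dimmer zone, the lowest well-above-background signal or the probe's own, whichever was higher. Zones were compared with limma 3.58.1 in R 4.3.3 on all 6 arrays (3 residual and 7.83 prior degrees of freedom) for the 226 miRNAs that both arrays of at least 1 zone had well above background, with Benjamini-Hochberg adjustment within a contrast and a threshold of 0.05. The fit was tested on simulated data. Other scalings, backgrounds, floors, filters, spot and probe summaries, blocks and left-out arrays were tried as alternatives. Sequences were read from RefSeq tables of GRCm38.p6. miR-210, the lists and the settings were chosen with earlier results of these data known. Named were miR-210, the 5 nearest profiles, list members that passed, and otherwise up to 2 per list. Other names were chosen after their values were seen. The number of arrays limits the precision.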

Additional observations from a re-analysis of the deposited data

How the results depend on the processing

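The log2 fold change of miR-210 between the outer zones stayed negative in all 25 other settings and passed in 9. It missed the threshold with the 75th percentile of all probes (-0.93), median scaling (-0.82), quantile normalization (-0.83), no scaling (-0.46), the authors' deposited log2 table (-0.94), the total signal per miRNA (-0.92), 2 times the floor, no filter on dim miRNAs and only the 4 arrays of the outer zones (-0.94 each), and with the slide row as a block (-0.98). The row block leaves only the first proliferative array to compare with, and so gives the value found without the second. Leaving out an array gave -1.15 to -0.73 for this comparison, -0.37 to -0.23 for the first step, -0.85 to -0.43 for the second and an F test adjusted p of 0.105 to 0.442. The first step turned to 0.038 without scaling, and the F test passed in 1 of 24 other settings, normexp background correction of the median spot signal (adjusted p = 0.0372). That setting was added after the files were seen, because they hold no mean spot signal, so the planned normexp on it was not run. It also turned miR-455* to -0.065. The labels share no replicate number between zones and do not call the runs of title numbers batches. With these runs as a replicate block, the outer difference was -0.94 (adjusted p = 0.0254) and the steps did not pass. The number of miRNAs past the threshold was 33, 5 and 3 in the outer comparison and the first and second step. It ranged from 1 to 46, 0 to 11 and 1 to 8 over the other settings, and differed by more than 1.5 times in 11, 13 and 12 of 24. The outer comparison had 13 higher and 20 lower. Unscaled values gave 15 and 0, quantile normalization 11 and 8, median scaling 11 and 1, and the all-probe percentile 10 and 1.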
